A study of Mus musculus with 50 samples.

Results

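The immunoproteasome and peptide loading genes were examined in mouse developing oligodendrocytes, the cells that will form myelin, after exposure to IFN-gamma or thapsigargin. The group held 10 genes taken by symbol from the 39056 entries of the deposited gene table. These were Psmb8, Psmb9, Psmb10, Psme1, Psme2, Tap1, Tap2, Tapbp, Tapbpl and Erap1, and every one of them passed the filter on low counts together with 16460 genes in all. The rule names symbols and uses no measured value, and it was drawn up with earlier results of these data known. Oligodendrocyte progenitors had been purified by immunopanning from the cortices of 6 day old C57BL/6 pups (a separate tissue tag reads whole brain), passaged 2 times and left to differentiate for 12 to 14 h before treatment, and total RNA was sequenced on an Illumina HiSeq.

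The 20 groups combined Nrf2 -/- cells, in which Nfe2l2, the gene of an antioxidant transcription factor, is disrupted, or wild-type (WT) cells with a treatment and an hour. IFN-gamma at 200 U/ml was given for 1, 8, 24 or 48 h, and thapsigargin, labelled 200 uM, for 1 or 8 h. Thapsigargin blocks the calcium pump of the endoplasmic reticulum (ER), which sets off the unfolded protein response. Untreated cells of both genotypes were collected at 1, 8, 24 and 48 h. Each Nrf2 -/- group held 3 libraries and each WT group 2, which made 30 Nrf2 -/- and 20 WT libraries. The labels do not say whether libraries of a group came from separate cultures or animals, nor how they were batched, so each p-value rests on variation among libraries that could be technical.

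As background, the proteasome cuts cytosolic proteins into peptides, and some of these are shown at the cell surface on MHC class I molecules. IFN-gamma, the cytokine of T cells and natural killer cells, is known to switch cells to the immunoproteasome, in which Psmb8, Psmb9 and Psmb10 take the places of the constitutive catalytic subunits Psmb5, Psmb6 and Psmb7. Psme1 and Psme2 encode the subunits of a cap that activates the 20S core. Tap1 and Tap2 together form the transporter that moves peptides into the ER, where Erap1 trims them and tapasin (Tapbp) and its relative Tapbpl help load them onto class I. Developing oligodendrocytes normally hold little class I machinery and are known to be injured by IFN-gamma.

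Library totals ran between 32252272 and 54657205 counted reads (median 36046423). Nfe2l2 was at 0.0973 to 0.859 CPM (counts scaled to a common library total) in 29 libraries labelled Nrf2 -/- and at 5.12 to 70.4 CPM in the 20 WT libraries. The library labelled Nrf2 -/- untreated 8 h replicate 3 stood at 7.62 CPM, within the WT range, and goes against its label. For 3 further libraries, replicate 2 of each Nrf2 -/- 8 h group, the title reads Nrf2-mutant while the genotype tag reads wild type; their Nfe2l2 lay at 0.178 to 0.669 CPM and they were kept as Nrf2 -/-. Summed oligodendrocyte lineage markers were at 2943.6 to 36339.7 CPM, and every one of the 11 was counted in all 50 libraries. Of 14 microglia and macrophage markers, Aif1, C1qa, C1qb, C1qc and Tyrobp had no count in any library, while P2ry12 (1.04 to 7.62 CPM) and Cd68 (2.57 to 8.15 CPM) were counted in all 50, and the 14 summed to 3.84 to 11.4 CPM. The 7 astrocyte markers summed to 106.2 to 348.2 CPM, of which Aldoc held 36.2 to 308.5 CPM, the 8 neuron markers to 7.99 to 29 CPM and the 9 endothelial, mural and fibroblast markers to 0.559 to 5.21 CPM.

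One control stood apart for the genes described here. The library labelled Nrf2 -/- untreated 24 h replicate 2 held 101 reads of Psmb8, against 1 to 5 in the other 4 untreated 24 h libraries, 40 of Psmb9 against 1 to 11, 82 of Tap2 against 11 to 28 and 210 of Tap1 against 91 to 129. Psmb10, Psme2 and Erap1 were also higher in it than in those other 4, and Psme1, Tapbp and Tapbpl lay within their range. Of other genes of the pathway, Irf1, Nlrc5, Irf8 and B2m were above that range, Irf9 and Rfxank within it and Rfx5 and Rfxap below it. The tests that rest on the untreated 24 h cells were therefore repeated without this library. In bulk samples, fewer cells of a type and less RNA per cell cannot be told apart.

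Of the 10 genes, 5 lie on chromosome 17 of GRCm38, in the MHC region or near it, by the GENCODE M21 annotation. Tapbp spans 33915899 to 33929292 on the plus strand. Psmb9 spans 34181987 to 34187764 on the minus strand and Tap1 34187553 to 34197225 on the plus strand, so these neighbours point away from each other and share 212 exonic bases. Psmb8 follows at 34197721 to 34201454 and Tap2 at 34203527 to 34216321, both on the plus strand. Psme1 (55578123 to 55581529, plus) and Psme2 (55587441 to 55591113, minus) are a close pair on chromosome 14. Psmb10 lies on chromosome 8 at 105935735 to 105938444 (minus), Tapbpl on chromosome 6 at 125223933 to 125231860 (minus) and Erap1 on chromosome 13 at 74639568 to 74693201 (plus). The strand setting of the counting is not given in the sources used here, so reads in shared exons (Psmb9 with Tap1, 834 bases of Erap1 with Cast, 533 of Tap2 with Gm15821, 149 of Tapbp with Zbtb22) could be counted for either gene, and Psme2 has a near copy, Psme2b, with 0 to 175 counts.

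Promoter windows from RefSeq (GRCm38.p6, 250 bases before to 50 after a start) were available for 8 of the 10 genes; Tap2 and Tapbpl were not matched. A few are shown because they carry the shared start of Psmb9 and Tap1 or the letters of a known interferon element. Capitals mark a GC box (GGGCGG) in Psmb9, chr17:34187281-34187580, minus strand; a gamma-activated site (GAS, TTCNNNGAA) in Psmb8, chr17:34197945-34198244, plus strand; and an interferon-stimulated response element (ISRE, searched as GAAA, any 2 bases, GAAA), matched as its reverse complement, in Psme1, chr14:55578244-55578543, and Erap1, chr13:74639603-74639902, both plus strand.
Psmb9: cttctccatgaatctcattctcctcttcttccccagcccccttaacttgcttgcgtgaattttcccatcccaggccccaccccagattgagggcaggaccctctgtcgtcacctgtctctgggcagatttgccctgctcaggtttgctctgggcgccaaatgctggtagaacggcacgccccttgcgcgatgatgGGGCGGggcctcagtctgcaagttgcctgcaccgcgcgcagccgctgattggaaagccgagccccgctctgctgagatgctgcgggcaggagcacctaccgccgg
Psmb8: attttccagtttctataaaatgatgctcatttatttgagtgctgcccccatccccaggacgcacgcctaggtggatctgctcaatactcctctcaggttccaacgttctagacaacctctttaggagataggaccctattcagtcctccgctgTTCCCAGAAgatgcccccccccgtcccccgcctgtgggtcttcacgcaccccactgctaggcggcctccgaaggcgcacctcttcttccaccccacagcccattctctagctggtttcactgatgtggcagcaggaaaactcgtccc
Psme1: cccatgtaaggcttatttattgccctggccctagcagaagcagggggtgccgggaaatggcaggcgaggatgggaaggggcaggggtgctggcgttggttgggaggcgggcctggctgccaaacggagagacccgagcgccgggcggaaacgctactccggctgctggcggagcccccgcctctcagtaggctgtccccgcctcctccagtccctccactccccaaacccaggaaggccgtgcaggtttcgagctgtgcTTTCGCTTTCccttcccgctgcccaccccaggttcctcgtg
Erap1: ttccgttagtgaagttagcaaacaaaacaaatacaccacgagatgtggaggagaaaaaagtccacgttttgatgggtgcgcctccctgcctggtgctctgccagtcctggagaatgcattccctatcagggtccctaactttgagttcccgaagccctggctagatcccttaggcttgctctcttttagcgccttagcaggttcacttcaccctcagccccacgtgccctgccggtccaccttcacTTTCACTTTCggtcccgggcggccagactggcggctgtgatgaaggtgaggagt

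The Psmb9 window and the Tap1 window share 275 of their 300 bases (chr17:34187306-34187580), read on opposite strands, and the GC box printed for Psmb9 lies in both windows. Over both strands, GGGCGG was found in the windows of 6 of the 8 genes (Erap1, Psmb9, Psme1, Psme2, Tap1 and Tapbp) and in 35.7% of all 32851 promoter windows of the same length. TTCNNNGAA was found in Psmb8 alone among the 8 and in 8.3% of all windows, and the ISRE pattern in Psme1 and Erap1 and in 3.44%. The 3 patterns do not contain one another. A match describes letters in the window, and its absence says only that these letters are not there.

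Levels were compared between genes only per length, as TPM (a level scaled for transcript length and library total) computed from the estimated counts of transcripts. In untreated cells at 1 h the median TPM over 5 libraries ran from Psme2 at 113.8, Psme1 at 53.2 and Psmb10 at 27.3 through Tapbp at 11.9, Erap1 at 4.79, Tap1 at 4.56, Tap2 at 1.82 and Tapbpl at 1.63 to Psmb9 at 0.669 and Psmb8 at 0.502. Transcripts of the cap subunits and Psmb10 were thus present before any treatment, while those of Psmb8 and Psmb9 were the scarcest. The TPM of a gene sums all its transcripts. For Psmb10 in these cells the protein-coding transcript, of 1311 bases, held a median of 34.4% of estimated counts. The shorter Psmb10-205 (554 bases) and Psmb10-203 (426 bases), not annotated as coding, held 26.8% and 16.7%. The place of Psmb10 in the order is thus not that of its coding transcript alone. After 48 h of IFN-gamma the order was Psme2 at 905.4 TPM, Psmb8 at 787.5, Psmb10 at 604.2, Psme1 at 497.7, Tap1 at 453.3, Tapbp at 293.9, Psmb9 at 274.9, Tap2 at 163.9, Erap1 at 79.1 and Tapbpl at 53. Psmb8, with Psmb9 at the bottom of the untreated order, stood second. The place of Tap2 in the 48 h order is likewise not that of its coding transcript alone. Its protein-coding transcript Tap2-201 held 22.8 to 26.4% of estimated counts there, against 35.9 to 74.6% in untreated cells at 1 h. Tap2-202, annotated as retaining an intron, held 72.2 to 76.2% at 48 h of IFN-gamma, against 21.2 to 64.1% in untreated cells at 1 h. Neighbours whose libraries overlapped in the 48 h order were Psmb10 and Psme1, Psme1 and Tap1, and Tapbp and Psmb9, and the other neighbours did not overlap. In the untreated order Psmb8 (0.418 to 1.03 TPM) and Psmb9 (0.393 to 0.956 TPM) overlapped, so which was lower is not resolved. Erap1 and Tap1 overlapped there too, as did Tap2 and Tapbpl.

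**Figure D1:**
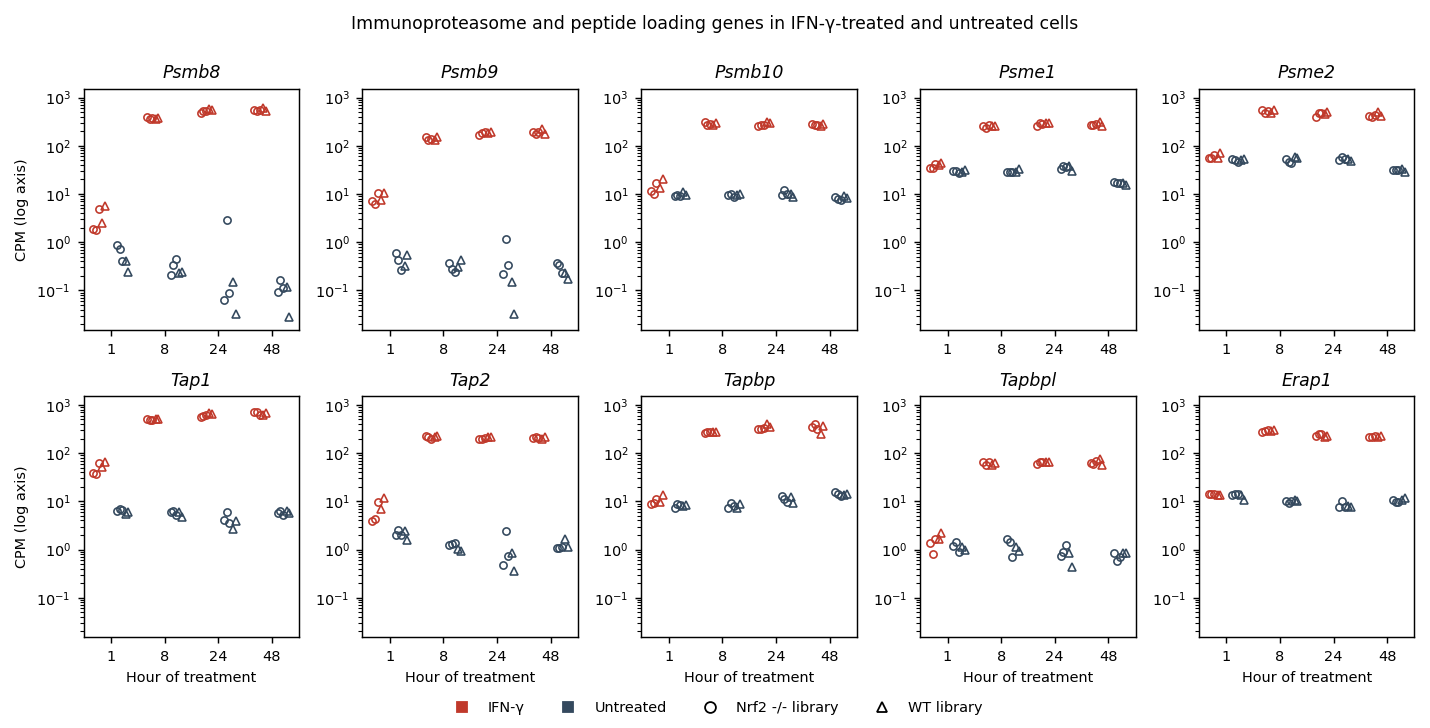
Level of each of the 10 genes by hour in CPM on a log axis, with 1 point per library, treatments by colour and genotypes by marker. The 5 IFN-gamma libraries of each hour from 8 h on lie above all 5 untreated libraries for every gene, and Psmb8 shows the widest span, at 474.4 to 599.2 CPM at 24 and 48 h of IFN-gamma, against under 1 CPM in most untreated libraries.

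After 1 h of IFN-gamma the catalytic subunits Psmb9 and Psmb8 and both genes of the peptide transporter were higher, the cap subunits slightly so, and the trimming enzyme Erap1 did not pass the test. Psmb9 had 7.01, 6.32 and 10.4 CPM in Nrf2 -/- and 7.47 and 10.3 CPM in WT IFN-gamma libraries, against 0.608, 0.425 and 0.267 CPM in Nrf2 -/- and 0.327 and 0.534 CPM in WT untreated libraries. Tap1, its neighbour across the shared promoter, had 38.9, 36.9 and 61.9 CPM in Nrf2 -/- and 51.1 and 66.3 CPM in WT IFN-gamma libraries, against 6.30, 6.85 and 6.56 CPM in Nrf2 -/- and 5.53 and 5.87 CPM in WT untreated libraries. In both genes every treated library exceeded every untreated one. With the genotypes averaged, the log2 fold was 4.27 ± 0.27 for Psmb9 and 3.08 ± 0.12 for Tap1 (standard error, 5 against 5 libraries; edgeR quasi-likelihood test with Benjamini-Hochberg adjustment, adjusted p = 2.13e-16 and 3.18e-19).

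Psmb8 had 1.92, 1.82 and 4.81 CPM in Nrf2 -/- and 2.51 and 5.68 CPM in WT IFN-gamma libraries at 1 h, against 0.856, 0.725 and 0.400 CPM in Nrf2 -/- and 0.402 and 0.240 CPM in WT untreated libraries, a log2 fold of 2.86 ± 0.54 (edgeR adjusted p = 4.35e-05). Tap2 had 3.95, 4.40 and 9.77 CPM in Nrf2 -/- and 6.98 and 11.6 CPM in WT IFN-gamma libraries, against 1.96, 2.52 and 1.97 CPM in Nrf2 -/- and 2.44 and 1.58 CPM in WT untreated libraries, a log2 fold of 1.84 ± 0.24 (adjusted p = 1.3e-06). Treated and untreated libraries did not overlap in either gene. The same libraries, Nrf2 -/- replicate 3 and WT replicate 2, were the high ones of their groups for Psmb8, Psmb9, Tap1 and Tap2.

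Psmb10 rose by a log2 fold of 0.59 ± 0.10 (adjusted p = 0.000127), Psme1 by 0.42 ± 0.07 (8.31e-05), Tapbp by 0.38 ± 0.11 (0.0487) and Psme2 by 0.26 ± 0.08 (0.0482). Psme1 had 33.9, 34.8 and 40.9 CPM in Nrf2 -/- and 39.3 and 44.4 CPM in WT IFN-gamma libraries, against 29.6, 29.3 and 27.3 CPM in Nrf2 -/- and 28.7 and 30.9 CPM in WT untreated libraries, with no overlap. For Psmb10 the lowest IFN-gamma library, at 9.90 CPM, lay below the highest untreated one, at 10.9 CPM. Tapbpl, at 0.49 ± 0.23 (0.404), and Erap1, at 0.09 ± 0.06 (0.764), did not pass. Thus 8 of the 10 genes were higher at 1 h (median log2 fold over the 10 genes 0.54), against 2.73% of all genes called higher, 3.64% in either direction and a median of -0.00 over all genes. The calls of Tapbp and Psme2 are near the threshold and were lost in most of the alternatives tried. Their edgeR adjusted p was 0.0537 and 0.0509 with DESeq2 size factors and 0.123 and 0.366 with estimated counts. Without WT IFN-gamma 1 h replicate 2 it was 0.464 and 0.492.

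By 8 h all 10 genes were higher, and they were still so at 24 and 48 h. Genes called higher were 19.4% of all genes at 8 h, 27.6% at 24 h and 27.3% at 48 h (39.8%, 55.9% and 55.8% in either direction). The median log2 fold over the 10 genes was 5.42 at 8 h, 5.67 at 24 h and 5.69 at 48 h, while the median over all genes was -0.02, -0.00 and -0.01. No treated library of any of the 10 genes overlapped an untreated one at these hours, a separation that was not counted over all genes.

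Psmb8 moved farthest. It had 388.0, 351.9 and 369.4 CPM in Nrf2 -/- and 367.0 and 378.2 CPM in WT cells after 8 h of IFN-gamma, against 0.213, 0.331 and 0.447 CPM in Nrf2 -/- and 0.233 and 0.246 CPM in WT untreated cells. The last of those Nrf2 -/- values, here and in every untreated 8 h list, is the library whose Nfe2l2 goes against its label. At 48 h it had 539.8, 528.4 and 555.5 CPM in Nrf2 -/- and 599.2 and 528.7 CPM in WT IFN-gamma cells, against 0.0943, 0.168 and 0.113 CPM in Nrf2 -/- and 0.115 and 0.0285 CPM in WT untreated cells. The log2 folds were 10.35 ± 0.60 at 8 h, 10.73 ± 0.86 at 24 h (12.59 ± 0.76 without the control that stood apart) and 12.47 ± 1.08 at 48 h. These folds rest on few untreated reads, so their size is loosely fixed even where the treated level is not. Psmb9 reached log2 folds of 8.74 ± 0.29, 9.61 ± 0.46 (10.14 ± 0.40 without that control) and 9.59 ± 0.36 at the same hours, with 132.7 to 154.9 CPM at 8 h and 174.0 to 225.2 CPM at 48 h of IFN-gamma. Psmb10 started higher and moved less, by 4.91 ± 0.10, 4.84 ± 0.10 and 5.01 ± 0.10, to 265.8 to 310.0 CPM at 8 h, against 8.72 to 9.93 CPM in untreated cells.

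Among the loading genes, Tap1 had 719.5, 720.3 and 628.0 CPM in Nrf2 -/- and 624.8 and 668.7 CPM in WT IFN-gamma libraries at 48 h, against 5.75, 6.15 and 5.32 CPM in Nrf2 -/- and 6.44 and 5.75 CPM in WT untreated libraries. Its log2 folds were 6.49 ± 0.12 at 8 h, 7.34 ± 0.13 at 24 h and 6.82 ± 0.12 at 48 h. Tap2, the partner of Tap1 in the transporter, was at 193.3 to 219.6 CPM at 48 h of IFN-gamma, against 1.08 to 1.67 CPM untreated, with log2 folds of 7.59 ± 0.27, 7.91 ± 0.32 and 7.40 ± 0.27. As with TPM, the counts of Tap2 are of the whole gene and not of its coding transcript alone. Without the untreated library that stood apart, the 24 h fold was 8.40 ± 0.31 for Tap2 and 7.47 ± 0.13 for Tap1. Tapbpl, which edits the peptides bound to class I, followed with 5.75 ± 0.19, 6.36 ± 0.23 and 6.37 ± 0.22. Tapbp had 5.10 ± 0.11, 4.98 ± 0.11 and 4.54 ± 0.10, and Erap1 4.83 ± 0.06, 4.83 ± 0.06 and 4.39 ± 0.06. Erap1, not called at 1 h, was at 277.9, 288.1 and 299.0 CPM in Nrf2 -/- and 286.4 and 302.8 CPM in WT cells after 8 h of IFN-gamma, against 10.1, 9.45 and 10.3 CPM in Nrf2 -/- and 10.9 and 10.3 CPM in WT untreated cells.

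The cap subunits had the smallest log2 folds at each of these hours. Psme1 was at 3.12 ± 0.07, 3.07 ± 0.07 and 4.05 ± 0.07, and Psme2 at 3.31 ± 0.08, 3.14 ± 0.08 and 3.81 ± 0.08. Psme2 lay between 476.0 and 548.2 CPM at 8 h of IFN-gamma, against 43.1 to 58.0 CPM in untreated cells. Without the untreated library that stood apart, the 24 h log2 folds were 4.90 for Psmb10, 3.09 for Psme1, 3.17 for Psme2, 4.97 for Tapbp, 6.33 for Tapbpl and 4.91 for Erap1. In edgeR's test every adjusted p of the 10 genes at 8, 24 and 48 h was under the threshold of 0.05 in each of the alternatives tried, including those that left out 1 library.

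Timing was set out by subtracting the IFN-gamma response at one hour from that at a later one, so each value holds the change of the untreated cells between those hours as well as that of the treated ones. Between 1 and 8 h the response of all 10 genes grew (24.1% of all genes called in either direction, 12.5% higher). The growth on the log2 scale was 7.49 ± 0.81 for Psmb8, 5.75 ± 0.36 for Tap2, 5.26 ± 0.30 for Tapbpl, 4.74 ± 0.09 for Erap1, 4.72 ± 0.15 for Tapbp and 4.47 ± 0.40 for Psmb9. It was 4.32 ± 0.14 for Psmb10, 3.40 ± 0.17 for Tap1, 3.05 ± 0.11 for Psme2 and 2.70 ± 0.10 for Psme1. Between 8 and 24 h Tap1 alone passed, with 0.86 ± 0.18 (edgeR adjusted p = 0.000307, with 15.8% of all genes called higher and 17.2% lower). Tap1 was at 503.2 CPM at 8 h and 632.5 CPM at 24 h of IFN-gamma, and untreated at 5.62 and 3.95 CPM. Its larger response thus went with both a higher treated and a lower untreated level. Without the untreated 24 h library that stood apart, Psmb8 at 2.24 ± 0.84 (0.0188) and Psmb9 at 1.40 ± 0.46 (0.0101) passed as well.

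Between 24 and 48 h some responses grew and others became smaller. Of all genes, 22% were called higher, 20.9% lower and 42.9% in either direction. The share called among the genes described here was near that of all genes, so a change between these hours was not particular to them. Psme1 grew by 0.99 ± 0.10 (edgeR adjusted p = 2.47e-10) and Psme2 by 0.67 ± 0.11 (2.75e-06), while the response was smaller at 48 h than at 24 h for Tap1 at -0.52 ± 0.18 (0.02), Erap1 at -0.44 ± 0.09 (7.73e-05) and Tapbp at -0.43 ± 0.15 (0.0166). The IFN-gamma level of Psme1 was 257.4, 290.8 and 277.4 CPM at 8, 24 and 48 h, and its untreated level was 16.7 CPM at 48 h, against 34.6 CPM at 24 h. Psme2 was at 518.3, 461.6 and 440.9 CPM at 8, 24 and 48 h of IFN-gamma, and untreated at 31.3 CPM at 48 h, against 52.3 CPM at 24 h. The larger response of the cap subunits at 48 h thus went with a lower untreated level and not with a higher treated one. The smaller responses went with higher untreated levels. Tap1 was at 668.0 CPM at 48 h of IFN-gamma, its highest hour, against 632.5 CPM at 24 h, and untreated at 5.92 CPM at 48 h, against 3.95 CPM at 24 h. Tapbp was at 329.7 CPM at 48 h and 348.0 CPM at 24 h of IFN-gamma, and untreated at 14.1 CPM at 48 h and 11 CPM at 24 h. Erap1 was at 222.2 CPM at 48 h and 232.2 CPM at 24 h of IFN-gamma, and untreated at 10.6 CPM at 48 h and 8.16 CPM at 24 h. The calls of Tap1 and Tapbp were each lost without 1 of 2 WT libraries (adjusted p up to 0.0931 and 0.0869), and without the control that stood apart Tap2 also passed, at -1.0 ± 0.38 (0.0296), while Psme1 was at 0.97, Psme2 at 0.64, Tap1 at -0.65 ± 0.17 (0.00228), Erap1 at -0.52 and Tapbp at -0.43, all still called.

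Expressed as a share of the highest mean level that a gene reached under IFN-gamma, the level at 1 h was 13.5% for Psme1, 11.7% for Psme2, 7.83% for Tap1, 5.19% for Psmb10, 4.81% for Erap1 and 4.32% for Psmb9. It was 3.54% for Tap2, 3.08% for Tapbp, 2.45% for Tapbpl and 0.628% for Psmb8. These shares include the level that untreated cells had. The gain over untreated cells was also set against the gain at the hour of highest level. At 1 h it was 6.97% for Tap1, 4.1% for Psmb9, 3.87% for Psme1, 2.59% for Tap2 and 2.15% for Psme2. For Psmb10 it was 1.85%, for Tapbpl 0.768%, for Tapbp 0.756%, for Psmb8 0.539% and for Erap1 0.299%. At 8 h, Psmb10, Psme2, Tap2 and Erap1 stood at their highest level of the 4 hours. Tapbpl had 93.7% of its highest level at 8 h, Psme1 88.5%, Tapbp 79.1%, Tap1 75.3%, Psmb9 73% and Psmb8 67.2%. Erap1 then stood at 79.7% of its 8 h level at 24 h and 76.2% at 48 h.

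**Figure D2:**
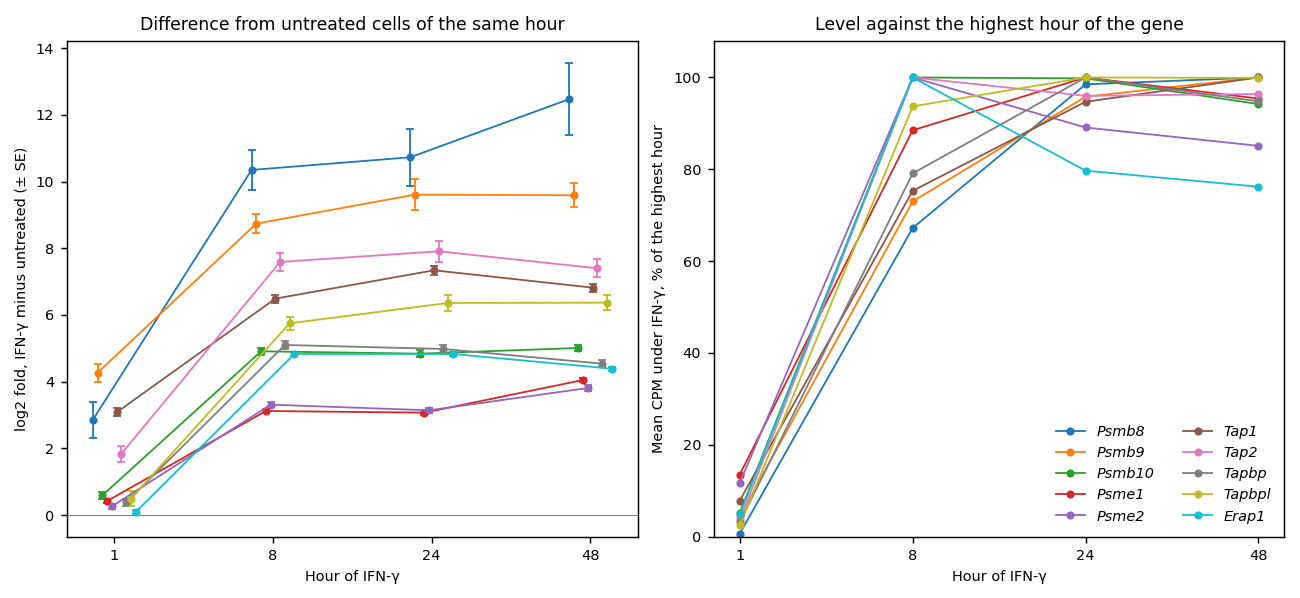
Mean CPM of the genotypes under IFN-gamma at 1, 8, 24 and 48 h as a percentage of each gene's highest hour, 1 line per gene. Psmb8, Psmb9, Tap1 and Tapbp stood at 67.2 to 79.1% of their highest hour at 8 h, while Psmb10, Psme2, Tap2 and Erap1 had their highest mean at 8 h. In Psmb10, Psme2 and Tap2 the 8 h libraries overlapped those of 24 and 48 h, so their highest hour is not resolved.

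The order was also read within libraries, as the log2 ratio of each gene's count to that of Tap1, which does not depend on library scaling. These ratios come from IFN-gamma libraries alone, so they too include the level that untreated cells had. At 1 h Psme2 averaged 60.7 CPM with IFN-gamma and 50.6 CPM untreated, and Tap1 52.3 CPM with IFN-gamma and 6.14 CPM untreated. Each pair of neighbouring hours was compared over 5 and 5 IFN-gamma libraries with an exact two-sided permutation test, whose smallest possible p is 0.00794, adjusted over 27 tests. From 1 to 8 h, Psmb8 gained 3.61 on Tap1, Tapbpl 2.04, Tap2 1.66, Tapbp 1.38, Psmb10 1.03, Erap1 1.03 and Psmb9 0.79, and Psme1 stood at -0.60 (exact test, adjusted p = 0.0165 for each), while Psme2 at -0.23 did not pass (0.173). From 8 to 24 h, Psmb8 gained a further 0.22 and Erap1, Psme2, Tap2 and Psmb10 changed by -0.63, -0.49, -0.38 and -0.34 (exact test, 0.0165 each), with Tapbpl at -0.23 (0.0286). Psme1, at -0.14 (exact test, 0.0536), Psmb9, at 0.07 (0.382), and Tapbp, at -0.00 (0.984), did not pass between 24 and 8 h. From 24 to 48 h Psmb10 alone passed, at -0.16 (exact test, 0.0286).

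Untreated cells drifted too while they differentiated. Between untreated cells at 48 h and at 1 h, Tapbp was higher at 48 h by 0.79 ± 0.11 (edgeR adjusted p = 1.28e-07), with 13.1 to 15.7 CPM at 48 h and 7.10 to 8.77 CPM at 1 h. Psme1 fell by 0.81, Psme2 fell by 0.69, Erap1 fell by 0.31, Psmb8 fell by 2.25 and Tap2 fell by 0.75 on the log2 scale, with standard errors of 0.07, 0.08, 0.06, 1.17 and 0.30. Psmb9, Tapbpl, Psmb10 and Tap1 did not pass. The 6 of 10 genes called compare with 68.1% of all genes called (34.5% higher, 33.6% lower) between these hours. The call of Psmb8 (adjusted p = 0.0445) rests on few reads and was lost in 12 of 18 alternatives; that of Tap2 (0.0278) was lost in 4. Summed oligodendrocyte lineage markers were at 33284.9 to 36339.7 CPM at 48 h without treatment, against 6835.8 to 7666.6 CPM at 1 h, and at 16205.1 to 20229.1 CPM after 48 h of IFN-gamma. At 24 h the sum was 6823.3 to 8850.5 CPM with IFN-gamma, against 17986.7 to 22149.4 CPM untreated, and at 8 h 5992.8 to 6980.4 CPM with IFN-gamma, against 8421.6 to 9703.2 CPM untreated. Summed neuron markers at 8 h were at 22.5 to 29 CPM with IFN-gamma, against 13.3 to 19.2 CPM untreated. The part of these markers in the results was not tested.

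The exchange of catalytic subunits was followed as the ratio of each inducible subunit to the constitutive one whose place it takes, within a library. The constitutive genes themselves moved little under IFN-gamma. Psmb5 rose by 0.26, 0.36 and 0.67 at 8, 24 and 48 h and Psmb6 by 0.29 at 48 h on the log2 scale, and Psmb7 was not called at any hour. The log2 count ratio of Psmb8 to Psmb5 averaged -5.17, 1.38, 1.94 and 1.96 at 1, 8, 24 and 48 h of IFN-gamma, against -7.71, -8.64, -9.25 and -9.71 in untreated cells. For Psmb9 to Psmb6 it was -4.40, -0.31, -0.02 and -0.04 with IFN-gamma, against -8.66, -9.17, -9.72 and -9.23 untreated. Both ratios differed from untreated at each of the 4 hours (exact two-sided permutation test over 5 and 5 libraries, adjusted p = 0.011 over 18 tests). For Psmb10 to Psmb7 it was -3.48, 0.92, 0.78 and 0.91 with IFN-gamma, against -3.98, -4.05, -4.07 and -4.09 untreated, with a difference of 0.50 at 1 h that did not pass (exact test, 0.0612) and differences of 4.97, 4.86 and 5.0 afterwards that did (0.011). Without the untreated 24 h library that stood apart, whose Psmb8 to Psmb5 ratio was -5.22 against -11.03 to -9.53 in the other 4, the differences at 24 h were 12.19 for Psmb8 to Psmb5, 10.28 for Psmb9 to Psmb6 and 4.92 for Psmb10 to Psmb7, against 11.18, 9.70 and 4.86 with it.

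Per length, the median TPM ratio of Psmb8 to Psmb5 was 0.0105 at 1 h, 1.42 at 8 h, 2.12 at 24 h and 2.21 at 48 h of IFN-gamma, against 0.00206, 0.000955, 0.000351 and 0.000839 in untreated cells. Transcripts of the inducible subunit thus outnumbered those of the constitutive one from 8 h on. The ratio of Psmb10 to Psmb7 was 0.133, 2.38, 2.19 and 2.45 with IFN-gamma, against 0.108, 0.106, 0.096 and 0.105 untreated. It takes in all transcripts of Psmb10. At 8 h the protein-coding one held 68.8 to 72.3% of estimated counts with IFN-gamma, against 31.4 to 41.6% untreated. That of Psmb9 to Psmb6 stayed under 1, at 0.0231, 0.468, 0.576 and 0.56 with IFN-gamma, against 0.00152, 0.000993, 0.000918 and 0.00126 untreated. The ratios of Psmb8 and Psmb9 take in all transcripts too. At 1 h the protein-coding Psmb9-204 held 12.6 to 21.6% of estimated counts of Psmb9 with IFN-gamma, against 47.8 to 88% untreated. At 8 h of IFN-gamma it held 75.8 to 80.4%. For Psmb8 at 1 h, 32 to 63% lay in a transcript annotated as retaining an intron with IFN-gamma, against 0 to 18.8% untreated. All these ratios are of transcripts and say nothing of assembled proteasomes.

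**Figure D3:**
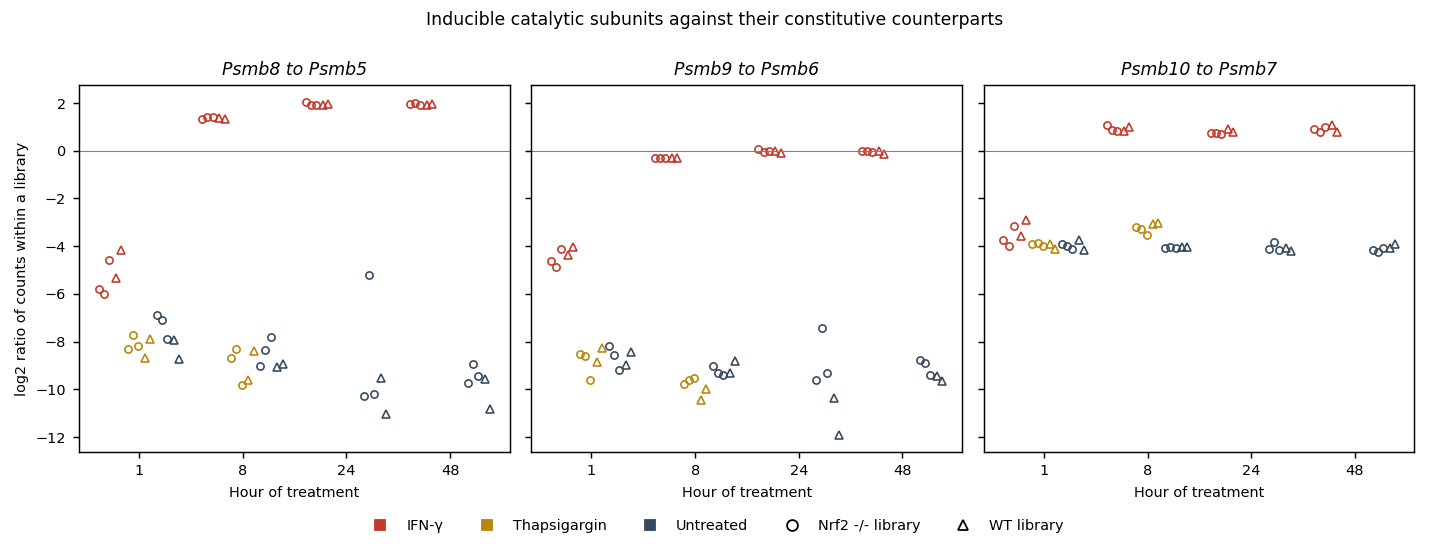
Log2 count ratio of Psmb8 to Psmb5, Psmb9 to Psmb6 and Psmb10 to Psmb7 by hour, 1 point per library, for IFN-gamma, thapsigargin and untreated cells. Under IFN-gamma all 3 ratios lie far above the untreated ones from 8 h on, and at 1 h the ratios of Psmb8 and Psmb9 are between the untreated and the 8 h values.

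Thapsigargin moved the genes little and not in one direction. Its own targets responded in these libraries: the ER chaperone Hspa5 rose by 1.03 at 1 h and 3.41 at 8 h, and the stress factor Ddit3 by 3.30 and 5.85 (log2 folds). At 1 h Psme2 alone among the 10 genes was called, lower by a log2 fold of -0.30 ± 0.08 (edgeR adjusted p = 0.00389), with 38.9, 45.9 and 39.1 CPM in Nrf2 -/- and 42 and 39.8 CPM in WT thapsigargin cells, against 52.2, 50.7 and 45.3 CPM in Nrf2 -/- and 50.5 and 53.3 CPM in WT untreated cells. The highest treated library, at 45.9 CPM, overlapped the lowest untreated one, at 45.3 CPM. Among all genes, 7.52% were called lower and 12.9% higher at 1 h (20.4% in either direction). The constitutive subunits Psmb5 (-0.27), Psmb6 (-0.23) and Psmb7 (-0.20) were called lower as well. Without Nrf2 -/- thapsigargin 1 h replicate 2, Erap1 was also called, at -0.17 (0.0455).

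At 8 h of thapsigargin 4 of the 10 genes were lower and 2 higher, against 32.9% of all genes lower and 34.3% higher (67.1% in either direction), so the share called is near that of all genes. Psme1 had 19, 18.2 and 20.8 CPM in Nrf2 -/- and 22 and 15.7 CPM in WT thapsigargin cells, against 28.5, 28.3 and 29.2 CPM in Nrf2 -/- and 29.2 and 32.2 CPM in WT untreated cells, a log2 fold of -0.63 ± 0.07 (edgeR adjusted p = 8.7e-10). Tap1 had 4.05, 3.26 and 2.87 CPM in Nrf2 -/- and 3.29 and 3.19 CPM in WT thapsigargin cells, against 6.06, 6.27 and 5.23 CPM in Nrf2 -/- and 6.03 and 4.74 CPM in WT untreated cells, a log2 fold of -0.76 ± 0.15 (2.8e-05). In both genes all treated libraries lay below all untreated ones. Psme2 had a smaller log2 fold of -0.26 ± 0.08 (0.00306), with overlapping libraries, and its call was lost without WT thapsigargin 8 h replicate 2 (0.0637).

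Psmb9, already scarce, had 0.175, 0.204 and 0.198 CPM in Nrf2 -/- and 0.113 and 0.134 CPM in WT thapsigargin cells at 8 h, against 0.372, 0.28 and 0.236 CPM in Nrf2 -/- and 0.311 and 0.418 CPM in WT untreated cells. Its log2 fold of -1.07 ± 0.51 was just past the threshold (edgeR adjusted p = 0.0482) and lost the call in 14 of 18 alternatives. Psmb10 moved the other way, with 12.0, 12.4 and 10.3 CPM in Nrf2 -/- and 13.4 and 11.7 CPM in WT thapsigargin cells, against 9.39, 9.91 and 8.72 CPM in Nrf2 -/- and 9.40 and 9.93 CPM in WT untreated cells (log2 fold 0.34 ± 0.10, 0.00456). The share of its estimated counts in the protein-coding transcript Psmb10-201 was 27.8 to 30.5% with thapsigargin, against 31.4 to 41.6% untreated. Erap1 had 11.6, 12.8 and 13.2 CPM in Nrf2 -/- and 13.1 and 12.5 CPM in WT thapsigargin cells, against 10.1, 9.45 and 10.3 CPM in Nrf2 -/- and 10.9 and 10.3 CPM in WT untreated cells (0.31 ± 0.06, 6.28e-05). Treated and untreated libraries did not overlap in any of these 3 genes. Tap2 at 0.65 ± 0.31 (0.0656), Psmb8 at -0.34 ± 0.89 (0.754), Tapbp at -0.13 ± 0.12 (0.334) and Tapbpl at -0.02 ± 0.24 (0.961) did not pass. Tap2 did pass in DESeq2 (0.65, adjusted p = 0.0434) and in edgeR without Nrf2 -/- thapsigargin 8 h replicate 3 (0.77, 0.0297), and Tapbp passed in edgeR on the estimated counts, at -0.44 (0.000172).

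Because Psmb7 was lower at 8 h of thapsigargin (-0.52, edgeR adjusted p = 9.13e-09) while Psmb10 was higher, their ratio differed more than either gene. The log2 count ratio of Psmb10 to Psmb7 averaged -3.21 in thapsigargin and -4.05 in untreated libraries (difference 0.83, exact two-sided permutation test, adjusted p = 0.011), and the median TPM ratio was 0.191 against 0.106. Both ratios take in all transcripts of Psmb10, of which the protein-coding one held a smaller share with thapsigargin. The ratio of Psmb9 to Psmb6 averaged -9.87 in thapsigargin and -9.17 in untreated libraries (difference -0.70, exact test, 0.011), with an adjusted p of 0.0612 when the pseudocount was 5 in place of 0.5. That of Psmb8 to Psmb5 differed by -0.33 (exact test, 0.482), and none of the 3 ratios passed at 1 h. Summed lineage markers were at 2943.6 to 3422.6 CPM in the thapsigargin libraries at 8 h, against 8421.6 to 9703.2 CPM in untreated ones. Summed astrocyte markers were at 106.2 to 114.9 CPM with thapsigargin, against 263.7 to 301.5 CPM untreated, and summed neuron markers at 18.7 to 25 CPM with thapsigargin, against 13.3 to 19.2 CPM untreated. The part of these markers in the results was not tested.

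**Figure D4:**
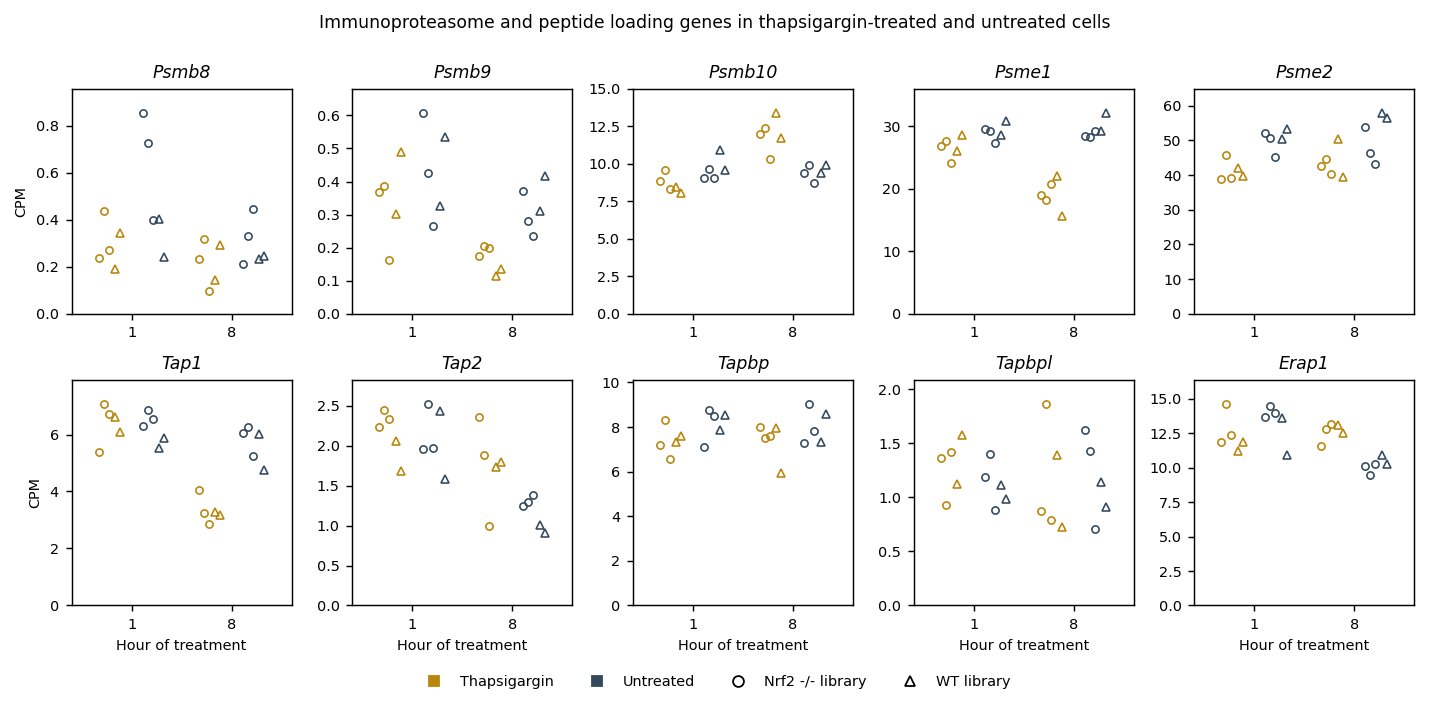
Level of each of the 10 genes in thapsigargin libraries beside untreated libraries at 1 and 8 h, in CPM, with 1 point per library. At 8 h the thapsigargin points of Psme1, Tap1 and Psmb9 lie below, and those of Psmb10 and Erap1 above, all untreated points.

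The responses of Nrf2 -/- and WT cells were not told apart by any test. None of the 10 genes was called in the differences between genotypes under each treatment, averaged over hours (edgeR; 0.510% of all genes called with thapsigargin, 0.0547% with IFN-gamma and 0.0243% untreated), and none in the 6 interactions of genotype with treatment at each hour (0 of all genes called). DESeq2 called none either, nor did edgeR in any alternative tried, those without the libraries of doubtful genotype included. At an unadjusted p under 0.05, 1 gene passed in the IFN-gamma interaction at 1 h, 3 at 24 h and 0 in the other 4, and 1 gene passed untreated, 1 with IFN-gamma and 0 with thapsigargin. The share of all genes at this unadjusted threshold is not given here, so nothing is read from these counts. The log2 difference of Nrf2 -/- from WT lay between -0.19 (Tap2) and 0.04 (Erap1) with IFN-gamma and between -0.03 and 0.16 with thapsigargin. Untreated, it lay between -0.06 (Psme2) and 1.42 ± 0.78 (Psmb8), and that of Psmb8 was 0.49 ± 0.55 without the control that stood apart.

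Within genotypes, the IFN-gamma response of Tap2 at 1 h was 1.48 in Nrf2 -/- and 2.19 in WT cells, that of Psmb8 was 2.10 in Nrf2 -/- and 3.62 in WT cells, and the interaction of Tap1 was -0.56 ± 0.25 (edgeR adjusted p = 0.986). At 24 h the interactions of Psmb8, Psmb9 and Tap2 were -3.62 ± 1.72, -2.68 ± 0.92 and -1.11, and 0.10 ± 1.52, -1.62 ± 0.80 and -0.12 without the untreated library that stood apart. The intervals are wide where untreated counts are low, so a difference between genotypes in these genes may have gone undetected.

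The transcript table gave a further view of timing, since 8 of the 10 genes have transcripts annotated as retaining an intron. The share of a gene's estimated counts assigned to such transcripts is an estimate of the quantification program, and the comparison was chosen after the data were seen. At 1 h of IFN-gamma the share for Psmb9 averaged 81.3 ± 5.57%, against 30.3 ± 18.1% in untreated cells at 1 h, and at 8 h of IFN-gamma it was 20.9 ± 1.75% (SD, n = 5 libraries). For Tap1 it was 51.7 ± 5.87% at 1 h of IFN-gamma, against 22.7 ± 2.77% untreated, and 12.8 ± 1.53% at 8 h. For Psmb8 it was 47.1 ± 11.4% at 1 h, against 7.06 ± 9.7% untreated, and 4.36 ± 0.556% at 8 h. Psme1 (21.7 ± 3.86% with IFN-gamma at 1 h, 7.59 ± 1.79% untreated) and Psme2 (21.3 ± 8.81% with IFN-gamma, 6.11 ± 1.64% untreated) had the same pattern with smaller shares.

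In all 5 genes the libraries did not overlap in either comparison (exact two-sided permutation test, adjusted p = 0.0106 over 16 tests). Such separation was not counted over all genes with transcripts of this kind. The untreated shares of Psmb8 and Psmb9 rest on 10 to 33 and 11.1 to 26.5 estimated counts per library. Psmb10, at 52.6 ± 7.14% with IFN-gamma and 48.5 ± 8.48% untreated at 1 h, and Tapbp, at 14.7 ± 2.45% with IFN-gamma and 13.3 ± 2.09% untreated, did not differ by the test at 1 h (exact test, 0.421 and 0.356) and were lower at 8 h than at 1 h of IFN-gamma, by -34.5 and -9.08 percentage points (0.0106). The share of Tap2 was 63.9 ± 12% at 1 h of IFN-gamma, against 38.1 ± 17% untreated (exact test, 0.0391, with overlapping libraries), and at 8 h of IFN-gamma it was not lower, at 74.7 ± 1.18% (0.163). Tapbpl and Erap1 each have a single transcript in the table. A raised share was not limited to IFN-gamma. With thapsigargin at 8 h that of Psme1 was 8.48 to 17.4%, against 5.45 to 7.65% untreated. That of Tapbp was lower, at 7.38 to 10.6% with thapsigargin and 12.8 to 18.7% untreated. In the other genes the thapsigargin and untreated libraries of 8 h overlapped.

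**Figure D5:**
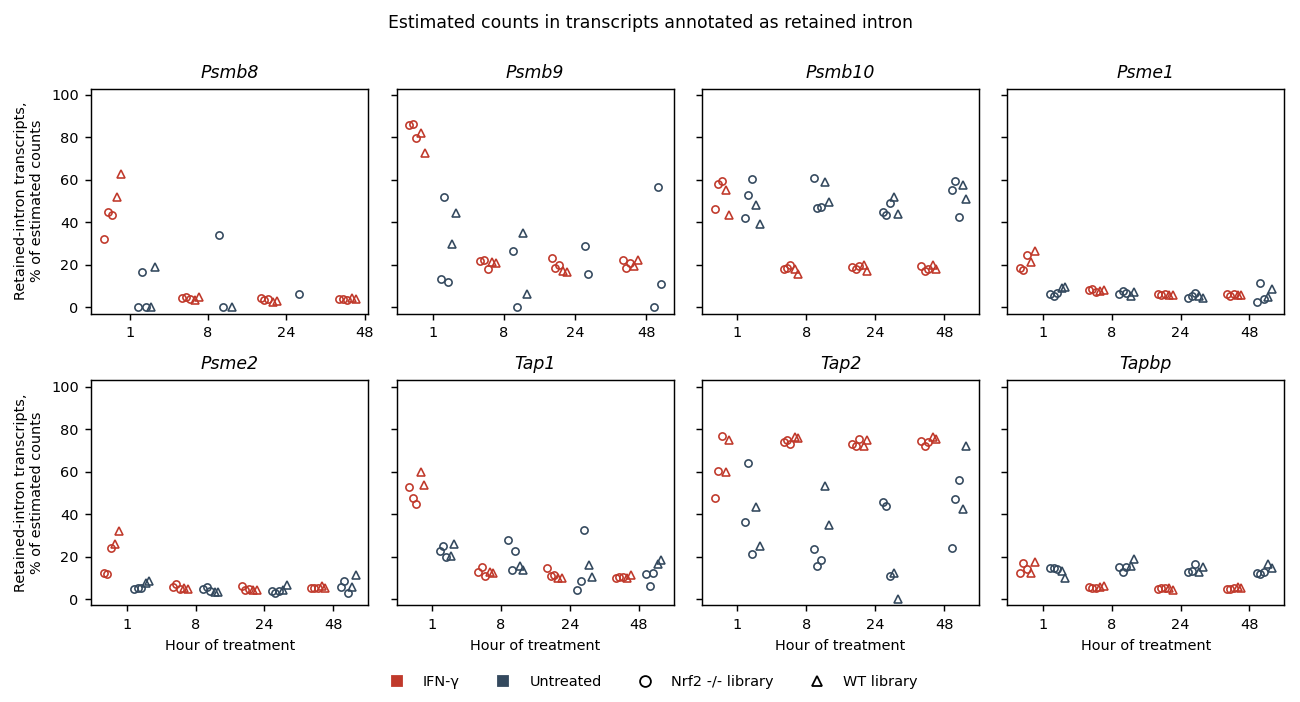
Share of estimated counts in transcripts annotated as retaining an intron, in percent, by hour and treatment, 1 point per library; points resting on under 10 estimated counts of the gene are left out. The IFN-gamma points of Psmb9, Tap1 and Psmb8 are high at 1 h and low from 8 h on.

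Other genes of the pathway were taken from lists and read against the shares of all genes given for each comparison. Among the upstream regulators of the interferon response, the transcription factor Irf8 was higher by a log2 fold of 5.4 ± 0.18 at 1 h of IFN-gamma (edgeR adjusted p = 3.06e-20) and 8.52 ± 0.28 at 48 h. With thapsigargin at 8 h, Nlrc5, the class I transactivator, was lower at -1.54 ± 0.31 (3.73e-05), as was Irf1 at -0.44 ± 0.08 (2.38e-06). Of the 7 ER folding partners of class I, the light chain B2m alone was higher with IFN-gamma at 1, 8 and 24 h, and 4 were higher at 48 h. With thapsigargin at 8 h 6 of the 7 were higher (median 1.67), with Pdia4 at 3.53 ± 0.05 (5.87e-38) and Pdia3, a partner of tapasin, at 2.16 ± 0.05 (1.28e-31), and B2m was lower, at -0.38 ± 0.10 (0.000627). Of all genes, 2.73%, 19.4%, 27.6% and 27.3% were called higher at 1, 8, 24 and 48 h of IFN-gamma. At 8 and 24 h B2m alone of the 7 was thus no larger a share than that of all genes. At 8 h of thapsigargin 34.3% of all genes were called higher and 32.9% lower.

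The rest of the proteasome moved far less than its inducible parts. Of 11 other 20S core subunits, 5 were higher at 8 h, 4 at 24 h and 10 at 48 h of IFN-gamma (median log2 fold 0.44 at 48 h, highest Psma4 at 0.65 ± 0.07), and all 11 were lower at 8 h of thapsigargin (median -0.39, lowest Psma2 at -0.77 ± 0.07). Of 18 subunits of the 19S regulatory particle, 6 were lower and 0 higher at 8 h of IFN-gamma, 13 were higher and 1 lower at 48 h (median 0.22), and 13 were lower and 0 higher at 8 h of thapsigargin (median -0.32). Of all genes, 19.4%, 27.6% and 27.3% were called higher at 8, 24 and 48 h of IFN-gamma, and 20.4%, 28.4% and 28.5% lower. The 4 of 11 core subunits at 24 h were thus near the share of all genes. At 8 h of thapsigargin 34.3% of all genes were called higher and 32.9% lower. Among 11 assembly factors and other activators, the chaperone Psmg4 stood at 0.99 ± 0.09 at 8 h and 1.66 ± 0.09 at 48 h of IFN-gamma, and Pomp, the maturation factor of the core, at 0.49 ± 0.12 (edgeR adjusted p = 0.000758) at 8 h of IFN-gamma and -0.69 ± 0.12 (3.58e-06) at 8 h of thapsigargin. Of 9 cytosolic and endosomal peptidases, Lap3 was at 1.74 ± 0.06 at 8 h and 1.88 ± 0.06 at 48 h of IFN-gamma and 0.86 ± 0.06 at 8 h of thapsigargin.

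Across the 20 group means the 10 genes had profiles with pairwise Pearson correlations of 0.950 to 0.998 on the log2(CPM + 0.5) scale, the highest between Psmb9 and Tap1. These groups share treatments, so the correlation mostly sets IFN-gamma groups from 8 h on against the rest and is given as a description. The genes most alike to the mean profile of the 10 were Apol6 (0.9984), F830016B08Rik (0.9981), Ifi47 (0.9978), Gm12250 (0.9976) and Tgtp1 (0.9976).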

How the data were processed

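Total RNA of 50 libraries was measured. The deposited gene table holds read counts per gene made by the authors, and the deposited isoform table holds estimated counts per transcript; STAR, featureCounts, kallisto and edgeR are named in the submitters' processing notes, while versions, genome build, annotation and the strand rule of the counting were not given in the sources used here. The 10 genes, the gene lists and the tests were chosen with earlier results of these data known.

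Counts were tested with edgeR 4.0.16 in R 4.3.3 (quasi-likelihood, robust, TMM scaling, 1 mean per group over all 50 libraries) for 16460 genes kept by filterByExpr (minimum count 10, total 15), in 31 comparisons; genotypes were averaged, SEs are of the fitted log2 fold, and genes with a Benjamini-Hochberg adjusted p under 0.05 over all tested genes were called. Fits without 1 library reused the genes and trended dispersion of the full fit. CPM values are scaled by TMM. TPM values were computed from the estimated counts, which were rounded where tested, and the GENCODE M21 transcript lengths of 111887 transcripts (99.65% of estimated counts). Ratios within a library used a pseudocount of 0.5 counts and exact permutation tests (SciPy 1.17.1). Depth was 32252272 to 54657205 counts per library. Alternatives were DESeq2 1.42.0, DESeq2 size factors, no filter, estimated counts, the genotype tag, a pseudocount of 5 and leaving out libraries. Gene identifiers were matched to GENCODE M21 without version for 38872 of 39056 entries. Every gene the text describes in full is one of the 10 or their catalytic counterparts; of the lists, counts and the genes with the highest or lowest fold are given, except that 1 upstream regulator is not reported here, nor are the counts of its list.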

Additional observations from a re-analysis of the deposited data

Results flagged for a closer look

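Differences between hours in the IFN-gamma response were tested by the difference itself (edgeR). Between 1 and 8 h they passed for all 10 genes, at 7.49 for Psmb8, 5.75 for Tap2, 5.26 for Tapbpl, 4.74 for Erap1, 4.72 for Tapbp, 4.47 for Psmb9, 4.32 for Psmb10, 3.40 for Tap1, 3.05 for Psme2 and 2.70 for Psme1 on the log2 scale. Between 8 and 24 h Tap1 passed at 0.86. Between 24 and 48 h Psme1 passed at 0.99, Psme2 at 0.67, Tap1 at -0.52, Erap1 at -0.44 and Tapbp at -0.43.

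In 10 of 100 sets of 5 libraries of 1 treatment and hour, 1 library lay far from the other 4 by Dixon's criterion, where chance gives about 5%. In 4 of them it was Nrf2 -/- untreated 24 h replicate 2, with 2.93 CPM of Psmb8, 1.16 of Psmb9, 2.38 of Tap2 and 10.3 of Erap1, each the highest of its set. Nrf2 -/- IFN-gamma 24 h replicate 1 was lowest for Psmb9, at 163.6 CPM, and for Tapbpl, at 60.1 CPM. The other 4 were Psme1 at 32.2 CPM in WT untreated 8 h replicate 2 (highest), Tap2 at 1.67 CPM in WT untreated 48 h replicate 1 (highest), Tapbp at 5.96 CPM in WT thapsigargin 8 h replicate 2 (lowest) and Erap1 at 10.9 CPM in WT untreated 1 h replicate 2 (lowest).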

How the results depend on the processing

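No called result changed direction under any alternative run; of those not called, the change of the Psmb8 response between 24 and 48 h was 1.74 on the log2 scale and -0.12 without Nrf2 -/- untreated 24 h replicate 2. Beyond the summaries, 1515 of the values of single genes under alternatives other than leaving out 1 library kept their call, 12 gained it and 20 lost it; without 1 library, 2501 kept it, 11 gained it and 48 lost it. The number of the 10 genes called between 8 and 24 h of IFN-gamma was 1, and 2 without the 3 libraries with conflicting labels and Nrf2 -/- untreated 8 h replicate 3, 3 when Nrf2 -/- untreated 24 h replicate 2 was left out too (an alternative chosen after seeing the data), 2 with estimated counts, and 1 to 3 without 1 library. The number called with thapsigargin at 1 h was 1, and 1 to 2 without 1 library. The ratio of Psmb9 to Psmb6 at 8 h of thapsigargin was -0.33 with a pseudocount of 5 (exact test, adjusted p = 0.0612), -0.65 with estimated counts (0.051) and -0.88 without those 5 libraries (0.0735), and missed the threshold each time; without 1 library it was -0.78 to -0.55. That of Psmb10 to Psmb7 at 1 h of IFN-gamma was 0.50 when permuted within genotype (0.0429), and 0.36 to 0.63 without 1 library, where it passed without Nrf2 -/- IFN-gamma 1 h replicate 1 or 2 (0.0408 and 0.0204). The cause was not tested. At 1 h of IFN-gamma, Psme2 lost its call in 12 and Tapbp in 13 of 18 alternatives. The share of transcripts retaining an intron of Tap2 at 1 h of IFN-gamma passed with all libraries (exact test, 0.0391) and not in 8 of the 10 repeats without 1 library.

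Counts over all genes moved by over 1.5 times mainly between genotypes. With thapsigargin 84 genes were called, 169 by DESeq2, 0 by the genotype tag, 4, 6 and 2 without the 3, 4 and 5 doubtful libraries, and 2 to 125 without 1 library. With IFN-gamma 9 were called, 53 by DESeq2, 18 with no filter, 5 by the tag and 7 to 127 without 1 library. Untreated, 4 were called, 14 by DESeq2, 1 by the tag, 2 without the 4 libraries, 9 with estimated counts and 3 to 7 without 1 library. No paired analysis was possible because the labels give no replicate numbers, and the numbers used here follow accession order only. Depth limits Psmb8, Psmb9, Tap2 and Tapbpl in untreated and thapsigargin cells, where folds rest on few reads.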
